A study of Homo sapiens with 12 samples.

Results

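The genes described here are the ROBO receptors (ROBO1, ROBO2, ROBO3 and ROBO4), their SLIT ligands (SLIT1, SLIT2 and SLIT3) and the SLIT-ROBO GTPase-activating proteins SRGAP1, SRGAP2 and SRGAP3. They were taken by symbol and make up 10 of the 48114 genes listed. The family was chosen after differences between these libraries had been seen, so its values in the same contrasts are given as a description, without p-values. The study sequenced polyA-selected RNA of 2 pancreatic ductal adenocarcinoma (PDAC) cell lines in 12 libraries, with 3 biological replicates per group. PANC-1, a line that the study uses as basal-like, was transfected with a control siRNA (siCtrl), a pool of siRNAs against the splicing regulator QKI (siQKI) or siRNAs against the splicing regulator RBFOX2 (siRBFOX2), with 40 nM siRNA stated for both knockdowns, and its RNA was collected after 48 h. HPAF-II, used as a classical line, carries the control siRNA in its labels. No group combined both knockdowns, and each line stands for its subtype alone, so a difference between the lines and a difference between the subtypes cannot be told apart.

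SLIT proteins are large secreted glycoproteins that bind the immunoglobulin domains of ROBO receptors with heparan sulfate as a co-factor. The pathway is best known for turning growing axons and migrating cells away from a SLIT source. ROBO receptors have no enzyme activity of their own and act on the cytoskeleton through adaptors, ABL kinases, Ena/VASP proteins and regulators of small GTPases such as RAC and CDC42, among them the SRGAPs. In the exocrine pancreas and in PDAC, SLIT-ROBO signalling has been studied for its effects on cell identity, migration and the stroma.

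A microRNA ties the ligands to the receptors. Introns of SLIT2 and SLIT3 carry the genes of miR-218, which is known to repress ROBO1 and ROBO2. The mature sequence is shown with its seed, bases 2 to 8, in capitals. MIR218-1 lies within SLIT2 (chr4:20528299-20528319, plus strand) and MIR218-2 within SLIT3 (chr5:168768211-168768231, minus strand), in RefSeq on GRCh38.p14, and both yield the same 21-base sequence.
miR-218-5p: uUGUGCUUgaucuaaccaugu

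The complement of this seed, AAGCACA, was searched on the transcript strand of the longest coding transcript of each gene in GENCODE 29 (GRCh38). The transcripts of ROBO1, ROBO2, SLIT2 and SRGAP1 held it at 2 places each and those of SLIT3, SRGAP2 and SRGAP3 at 1 each. Those of ROBO3, ROBO4 and SLIT1 held none, so the match was not particular to ROBO1 and ROBO2. Of all 19659 transcripts searched, 26.7% held the match, and of 1976 within 20% of the length of the ROBO1 transcript 52.8% did, so these matches are common in transcripts of this size. The matches in the receptors that changed in PANC-1 are shown in capitals within their windows. The ROBO1 windows lie on the minus strand, the former in the coding sequence and the latter in the 3′ UTR, and both ROBO2 windows lie in the 3′ UTR on the plus strand.
ROBO1 chr3:78606805-78606833: tgatcccagagAAGCACAggaacagcaaa
ROBO1 chr3:78597925-78597953: tttggttttaaAAGCACAatcactaaact
ROBO2 chr3:77646500-77646528: tatttggtgatAAGCACAaatctctactc
ROBO2 chr3:77648945-77648973: atgtccaatacAAGCACAgcttcattcat

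The letters most often given for QKI (ACTAAC) and for RBFOX proteins (TGCATG) were searched in the same mature transcripts, where introns, the usual place of splicing elements, are absent. ACTAAC was in 24.9% and TGCATG in 52.4% of all transcripts. The ROBO1 transcript, 7501 bases long, held neither, where 49.2% of transcripts of like length held ACTAAC and 83.6% TGCATG. The SLIT3 transcript, 9706 bases long, held no ACTAAC and TGCATG at 3 places, and 90.9% of 1126 transcripts of like length held TGCATG. The SLIT3 windows are shown with the match in capitals because SLIT3 is the ligand of highest level here, and they lie on the minus strand. The window at chr5:168817352-168817381 is in the coding sequence and the others are in the 3′ UTR.
SLIT3 chr5:168817352-168817381: cagttcacactcTGCATGgctcctgtgcat
SLIT3 chr5:168664427-168664456: tatctaaaaatgTGCATGtaaatctccatt
SLIT3 chr5:168663575-168663604: cacaaagagctgTGCATGctaaactgggcc

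The values are counts per gene that the authors had divided by a size factor for each library (normalized counts), within each line's table. PANC-1 libraries had size factors of 0.877 to 1.15, those of HPAF-II 0.81 to 1.09, and how many fragments a value stands for is not known. In siCtrl libraries of PANC-1, QKI was at 25533 normalized counts and in siQKI at 5034, a log2 fold change of -2.34 (SE 0.06, limma adjusted p = 9.15e-13). RBFOX2 was at 15429 in siCtrl and 2095 in siRBFOX2 (-2.89, SE 0.09, limma adjusted p = 4.70e-11). RBFOX2 was also lower in siQKI, at 12642 (-0.29, SE 0.09, limma adjusted p = 0.0207). As markers of the lines, VIM and ZEB1 were high and CDH1 was low in PANC-1, and CDH1, EPCAM and GATA6 were high in HPAF-II. HPAF-II replicates 2 and 3 listed VIM at 81.3 and 85.3 and replicate 1 at 4248, so the value that rests on replicate 1 is also given without it.

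All 10 genes differed widely in level. Rescaled to a total of 1000000 per library and divided by the summed exon length of each gene in GENCODE 29, the siCtrl libraries of PANC-1 placed SLIT3 (3.20 ± 0.0785 per kb, SD, n = 3) and SRGAP2 (3.06 ± 0.075 per kb) highest, and their libraries overlapped. ROBO1 (0.991 ± 0.037 per kb) and SRGAP1 (0.861 ± 0.0354 per kb) followed, then ROBO3 (0.611 ± 0.0519 per kb). SLIT1 (0.0255 ± 0.00659 per kb), SRGAP3 (0.0219 ± 0.00976 per kb) and ROBO4 (0.0199 ± 0.00742 per kb) were far lower and did not differ beyond their spread. ROBO2 was listed at 0 in these libraries, and SLIT2 was listed at 0 in all 12 libraries of the study. PANC-1 therefore carried RNA for 1 abundant ligand, SLIT3, and for 2 receptors well above the rest, ROBO1 and ROBO3. Whether SLIT3 binds or acts on either receptor in these cells was not tested. With the lengths kept, the knockdowns moved ROBO1 to 3.51 ± 0.0844 per kb in siQKI and 3.37 ± 0.162 per kb in siRBFOX2. SLIT3 then stood at 4.38 ± 0.171 per kb and 3.33 ± 0.229 per kb. The receptor was below the ligand in every siCtrl and siQKI library, whereas in siRBFOX2 the levels of receptor and ligand lay within their spread.

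**Figure D1:**
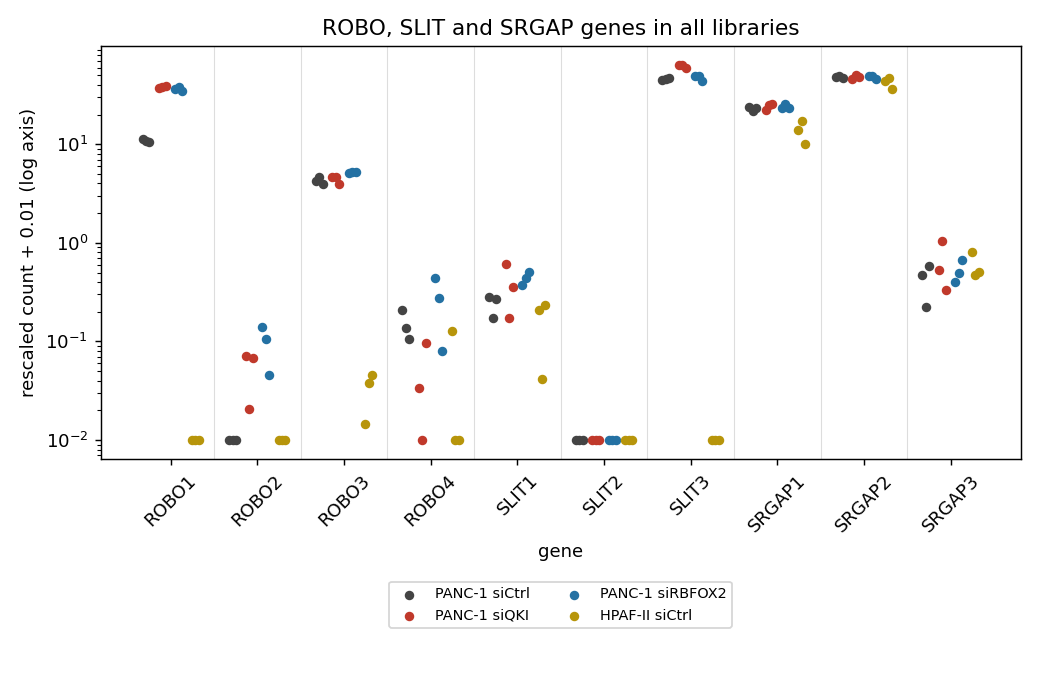
Rescaled counts (plus 0.01, log axis, not divided by length) of the 10 genes in the 12 libraries, with each point a library and colours for the 4 groups. ROBO1 stands higher in all siQKI and siRBFOX2 libraries than in siCtrl, ROBO1 and SLIT3 sit at the floor in HPAF-II, and SLIT2 sits at the floor everywhere.

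ROBO1 (GSHG0031494, chr3:78597238-79767998 on hg38), the broadly expressed SLIT receptor, rose about 3.4-fold on loss of QKI. Its normalized counts were 3804, 3709 and 3609 in siCtrl and 12392, 12590 and 12800 in siQKI. The siRBFOX2 libraries gave 12293, 12399 and 11703. Every knockdown library lay far above every siCtrl library, and the 2 knockdowns overlapped each other. The log2 fold change on normalized count + 1 was 1.76 (SE 0.05) in siQKI and 1.71 (SE 0.05) in siRBFOX2, a 3.27-fold rise. The direct difference between siQKI and siRBFOX2 was 0.05, with a 95% interval of -0.05 to 0.16. Both knockdowns are set against the same 3 siCtrl libraries, so an unusual control value would move both folds together. Genes past the adjusted threshold changed by a median size of 0.37 in siQKI and 0.32 in siRBFOX2. Rises were also ranked among genes past that threshold with a mean of at least 50 and libraries that did not overlap. There ROBO1 was number 79 of 3154 in siQKI and number 52 of 2545 in siRBFOX2. Since the family was chosen after such differences had been seen, these ranks are description only. Whether the ROBO1 transcripts were spliced differently cannot be read from gene totals.

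ROBO2, the close relative of ROBO1 that lies on the same chromosome (GSHG0030159, chr3:75906675-77649964), appeared at low level in the knockdown libraries. It was listed at 0 in all 3 siCtrl libraries. The siQKI libraries gave 20.5, 3.49 and 18.9 normalized counts, and the siRBFOX2 libraries 44.2, 31 and 12. All 6 knockdown libraries were above 0, but far under ROBO1, and no fold is given against a group at 0. The mean over the 9 libraries was 14.5, just above the minimum of 10, and it passed that minimum only through the knockdown groups, so it had to differ. ROBO2 in siQKI no longer passed with 10 added before the log, and in 7 of 9 fits that each left out a library (all but those without siQKI replicate 2 or siRBFOX2 replicate 3). In siRBFOX2 it no longer passed without siRBFOX2 replicate 1.

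ROBO3 (GSHG0006856, chr11:124865386-124881471), the receptor known for keeping commissural axons from responding to SLIT before they cross the midline, moved little. Its normalized counts were 1437, 1628 and 1364 in siCtrl, 1545, 1536 and 1279 in siQKI and 1704, 1682 and 1763 in siRBFOX2. The siQKI libraries overlapped siCtrl (log2 fold change -0.02, SE 0.10, and 0.04 with upper-quartile scaling). All siRBFOX2 libraries lay above all siCtrl libraries (0.22, SE 0.10) without passing the adjusted threshold, and above all siQKI libraries (siQKI minus siRBFOX2 -0.24, SE 0.10), also without passing.

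ROBO4 (GSHG0008383, chr11:124883691-124897865), the receptor of endothelial cells, was near the limit of what these libraries resolve. It was at 67.0, 44.0 and 33.2 normalized counts in siCtrl, 7.98, 0 and 28.3 in siQKI and 144, 86.2 and 23.2 in siRBFOX2. The siQKI libraries were all below siCtrl, and the siRBFOX2 libraries spread across both other groups. The log2 fold change was -2.88 (SE 1.05) in siQKI and 0.52 (SE 1.05) in siRBFOX2, and siQKI minus siRBFOX2 was -3.39 (SE 1.05) although those libraries overlapped. The size in siQKI rested on replicate 2, at 0, without which the log2 fold change was -1.54. The call was lost with 0.1 or 10 added before the log, without a filter, with upper-quartile scaling, in a fit of only siQKI and siCtrl, without a mean-variance trend, and in 7 of 9 fits that each left out a library (all but those without siQKI replicate 3 or siRBFOX2 replicate 3). The direct call was lost with 0.1 added before the log, without a filter, in a fit of only the groups compared, without a trend, and without siQKI replicate 2, siRBFOX2 replicate 1 or siRBFOX2 replicate 2. Of 6 endothelial markers (PECAM1, CDH5, TEK, KDR, VWF and ERG), 2 were at 0 in every siCtrl library, 1 in every siQKI library and 1 in every siRBFOX2 library. Their summed normalized counts were 33.2 to 73 in siCtrl, 15.7 to 108 in siQKI and 87.1 to 156 in siRBFOX2, and their part in the ROBO4 values was not tested. The single markers did not move together. VWF, the von Willebrand factor gene, was at 19.1, 19 and 21.1 in siCtrl and at 1.14, 4.36 and 1.05 in siQKI. All siQKI libraries of VWF were lower, without passing (log2 fold change -2.86, SE 1.07, limma adjusted p = 0.0537). ERG had a higher mean in siQKI, 31.5 against 16 in siCtrl, with libraries overlapping (log2 fold change 1.39, SE 1.40). PECAM1, CDH5 and TEK were not tested. KDR, a receptor for VEGF, was listed at 0 in every siCtrl library and was at 71.5, 35.8 and 17.6 in siRBFOX2 and at 30.8, 17.4 and 0 in siQKI. KDR passed the minimum mean of 10 only through the knockdown groups, so a difference from siCtrl was set by the filter and no p-value is given.

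SLIT3 (GSHG0035990, chr5:168661740-169301139), the only abundant ligand, was higher in the siQKI libraries. Its normalized counts were 15113, 15884 and 16172 in siCtrl, 21198, 21020 and 19577 in siQKI and 16520, 15942 and 14598 in siRBFOX2. The lowest siQKI library was above every other library of the line, while siRBFOX2 and siCtrl overlapped. The log2 fold change was 0.39 (SE 0.05), a 1.31-fold rise, in siQKI. In siRBFOX2 it was -0.00 (SE 0.05), with a 95% interval of -0.12 to 0.11. The direct difference between the knockdowns was 0.39 (SE 0.05, 95% interval 0.28 to 0.51). The rise of SLIT3 in siQKI was thus close to the median size of 0.37 among called genes, while the rise of ROBO1 was far above it. SLIT3 overlaps MIR218-2 and SLIT3-AS2, whose means over the 9 libraries were 12.9 and 24.8 against 17336 for SLIT3. The value of the MIR218-2 gene is not a level of mature miR-218, which polyA-selected libraries do not capture.

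SLIT1 (GSHG0005347, chr10:96998038-97185959), a ligand best known from the nervous system, was low and variable. It was at 92.9, 57.0 and 89.5 normalized counts in siCtrl, 202, 53.2 and 114 in siQKI and 123, 138 and 165 in siRBFOX2. The siRBFOX2 libraries were all above siCtrl, with a log2 fold change of 0.84 (SE 0.44), and the siQKI libraries overlapped siCtrl (0.45, SE 0.44). Neither passed the adjusted threshold. SLIT2 (GSHG0032488, chr4:20251905-20620561), the ligand most studied in cancer, was listed at 0 in every library and was not tested.

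**Figure D2:**
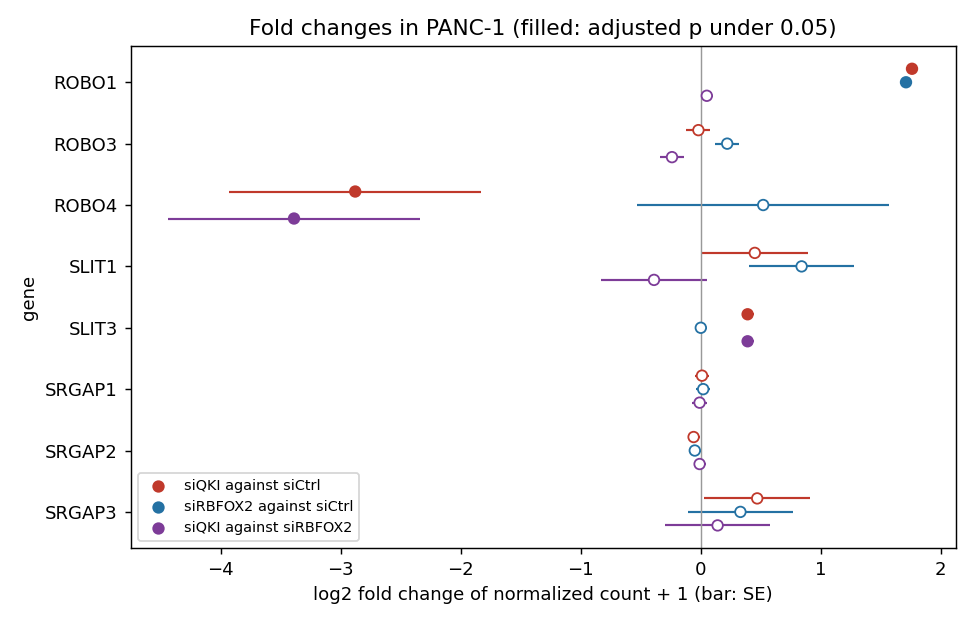
Log2 fold changes of normalized count + 1 with standard errors for 8 of the 10 genes in the 3 contrasts of PANC-1 groups, filled where the adjusted p was under 0.05. ROBO1 lies near 1.76 and 1.71 for the knockdowns and near 0.05 between them, whereas SLIT3 moves only where siQKI is compared and the SRGAP genes stay near 0 or have wide errors. ROBO2 and SLIT2 are not drawn because siCtrl is at 0.

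The SRGAPs inactivate small GTPases such as RAC and CDC42 downstream of ROBO and bend membranes through their F-BAR domains. SRGAP1 (GSHG0009183, chr12:63844700-64162217) was at 8015, 7612 and 8032 normalized counts in siCtrl, 7406, 8166 and 8292 in siQKI and 7908, 8248 and 7772 in siRBFOX2. The 3 groups overlapped, with log2 fold changes of 0.01 (95% interval -0.11 to 0.13) and 0.02 (-0.10 to 0.13). SRGAP2 (GSHG0002870, chr1:206201744-206464569) was at 16130, 17124 and 16187 in siCtrl, 15165, 16410 and 15876 in siQKI and 16418, 15963 and 15305 in siRBFOX2. These groups overlapped too, with log2 fold changes of -0.06 (95% interval -0.16 to 0.04) and -0.05 (-0.15 to 0.05). For both genes the bounds of these intervals were nearer to 0 than the fold changes of ROBO1, or of SLIT3 in siQKI. SRGAP3 (GSHG0030929, chr3:8980591-9249685) was low, at 155, 74.0 and 198 in siCtrl, 172, 339 and 105 in siQKI and 133, 156 and 220 in siRBFOX2. All its groups overlapped, with log2 fold changes of 0.47 and 0.33 (SE 0.44 each), whose intervals of -0.46 to 1.40 and -0.60 to 1.26 allow a large change in either direction.

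SRGAP2 has near-identical human copies, and how reads were shared among them is not known, so its values are uncertain. SRGAP2B, a truncated copy, was at 12544 in siCtrl and 11028 in siRBFOX2 (log2 fold change -0.19, limma adjusted p = 0.00786). SRGAP2C, the copy known to produce a protein that inhibits SRGAP2, went from 13114 to 11844 (-0.15, limma adjusted p = 0.0307). SRGAP2D gave -0.18 (limma adjusted p = 0.131). In siQKI the copies were at -0.04, -0.01 and 0.07, and none passed. Summed with SRGAP2, they gave 44614 ± 1146 in siCtrl, 43593 ± 1088 in siQKI and 40960 ± 510 in siRBFOX2 (SD, n = 3). SRGAP2 also overlaps FAM72A (mean 3505 against 16064 for SRGAP2), and SRGAP3 overlaps TTLL3, whose mean of 540 was above that of SRGAP3 (172). Since strand is not stated, reads of these pairs cannot be told apart.

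Counted by threshold, 4 of 9 genes tested passed in siQKI (ROBO1, ROBO2 and SLIT3 higher, ROBO4 lower). Of all 22544 genes tested, 33.0% passed in that contrast, 14.9% higher and 18.1% lower. In siRBFOX2, 2 of 9 passed, ROBO1 and ROBO2, both higher, beside 26.5% of all genes, 12.0% higher and 14.5% lower. ROBO2, listed at 0 in siCtrl, reached the minimum mean only through the knockdown groups. Its passes in siQKI and in siRBFOX2 were thus set by the filter and carry no weight in these counts. Between siQKI and siRBFOX2, 2 of 9 passed, SLIT3 higher and ROBO4 lower in siQKI, beside 21.5% of all genes, 9.93% higher and 11.6% lower. The family was chosen on these contrasts and nothing is read from its shares. The median log2 fold change of the 9 genes was 0.39 in siQKI against 0.025 for all genes, 0.33 in siRBFOX2 against 0.011, and -0.01 between the knockdowns against 0.005. The balance of higher and lower calls depended on scaling. With upper-quartile scaling, 58.0% of the genes called in siQKI were higher, compared with 45.2% otherwise.

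Another 53 genes of the pathway were followed from lists of surface partners, receptor processing and trafficking, cytoplasmic effectors and transcription regulators, of which 51 were tested. In siQKI 29 passed (56.9%, beside 33.0% of all genes tested), 16 higher and 13 lower (14.9% and 18.1% of all genes), with a median log2 fold change of 0.03 against 0.025 for all genes. In siRBFOX2 27 passed (52.9%, beside 26.5%), 9 higher and 18 lower (12.0% and 14.5% of all genes), with a median of -0.05 against 0.011. Between the knockdowns 20 passed (39.2%, beside 21.5%), 13 higher and 7 lower in siQKI (9.93% and 11.6% of all genes). These shares are a description, and the lists, written from the pathway's known parts, were not tested against other genes. With upper-quartile scaling the splits were 19 and 9 in siQKI, 11 and 14 in siRBFOX2 and 14 and 6 between the knockdowns, so the excess of lower calls in siRBFOX2 shrank.

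Among 14 surface partners tested, 8 rose and 2 fell in siQKI, beside 14.9% and 18.1% of all genes tested. In siRBFOX2 5 rose and 3 fell, beside 12.0% and 14.5% of all genes. NEO1, a netrin and RGM receptor of the same immunoglobulin superfamily, rose in both. It was at 954, 886 and 675 normalized counts in siCtrl, 1960, 1354 and 1482 in siQKI and 1293, 1507 and 1419 in siRBFOX2. Every knockdown library of NEO1 was above every siCtrl library, with log2 fold changes of 0.93 (SE 0.15, limma adjusted p = 1.95e-04) and 0.76 (SE 0.15, limma adjusted p = 0.00151). NTN1, the guidance cue netrin-1, moved in opposite directions. It was at 3456, 3033 and 2880 in siCtrl, 5265, 4291 and 4464 in siQKI and 2710, 2189 and 2189 in siRBFOX2. No group overlapped another. NTN1 rose by 0.58 (SE 0.10, limma adjusted p = 3.90e-04) in siQKI and fell by 0.41 on the log2 scale (SE 0.10, limma adjusted p = 0.00777) in siRBFOX2. The direct difference was 0.99 (SE 0.10, limma adjusted p = 6.17e-06), with siQKI higher. Of the heparan sulfate proteoglycans, GPC1, a known SLIT binder, rose in both (0.38 and 0.26, SE 0.04 each), as did SDC3 (0.35 and 0.51, SE 0.07 each). SDC1 fell in both (-0.30 and -0.27, SE 0.05 each). SDC4 fell in siRBFOX2 (-0.20, SE 0.05) and was at 0.10 (SE 0.05) in siQKI without passing, and SDC2 passed in neither (0.00 and -0.06, SE 0.05 each). DAG1, which encodes dystroglycan, a SLIT-binding protein, rose by 0.20 and 0.13 (SE 0.04 each).

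Of 8 genes for receptor processing and trafficking, 2 rose and 2 fell in siQKI, beside 14.9% and 18.1% of all genes tested. In siRBFOX2 0 rose and 4 fell (limma, with 1 higher at an unadjusted p under 0.05), beside 12.0% and 14.5% of all genes. With upper-quartile scaling 3 rose and 1 fell in siQKI, and 0 rose and 3 fell in siRBFOX2. These genes set how much ROBO protein reaches and stays at the surface. The ubiquitin ligase NEDD4 was at 12666 in siCtrl, 14739 in siQKI and 9798 in siRBFOX2. It rose by 0.22 (SE 0.06, limma adjusted p = 0.0125) in siQKI and fell by 0.37 on the log2 scale (SE 0.06, limma adjusted p = 3.98e-04) in siRBFOX2, with a direct difference of 0.59 (SE 0.06, limma adjusted p = 7.28e-06). Its relative NEDD4L fell in both, by 0.42 on the log2 scale in siQKI (SE 0.06, limma adjusted p = 5.50e-05) and by 0.20 in siRBFOX2 (SE 0.06, limma adjusted p = 0.0226). NDFIP2, an adaptor that recruits NEDD4-family ligases, fell in siRBFOX2 (-0.39, SE 0.05, limma adjusted p = 8.75e-05) and was at -0.01 (SE 0.05) in siQKI. ADAM10, the protease that sheds the ROBO ectodomain, rose in siQKI (0.22, SE 0.04, limma adjusted p = 4.23e-04). USP33, a deubiquitinase that binds ROBO1, passed in neither knockdown. PRRG4, the relative of fly Commissureless that removes ROBO1 from the surface, was at 247, 224 and 184 in siCtrl. It was at 120, 146 and 271 in siQKI and 362, 377 and 335 in siRBFOX2. The siQKI libraries of PRRG4 overlapped siCtrl (-0.37, SE 0.28), and the siRBFOX2 libraries were all above siCtrl (0.72, SE 0.28). Neither knockdown passed against siCtrl. All siQKI libraries were below all siRBFOX2 libraries, with a direct difference of -1.09 (SE 0.28, limma adjusted p = 0.012). This difference did not pass without siQKI replicate 1 (-0.85).

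**Figure D3:**
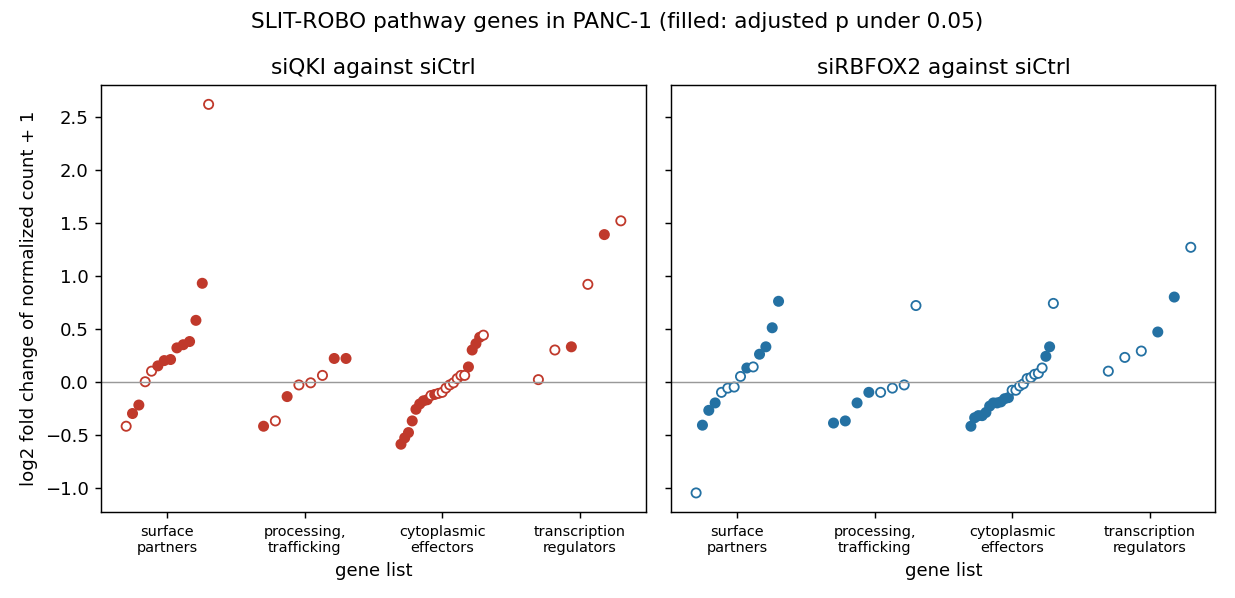
Log2 fold changes of normalized count + 1 for the 51 tested pathway genes in siQKI and in siRBFOX2, by list and ordered by value within a list, filled where the adjusted p was under 0.05. Of the 23 cytoplasmic effectors, 9 filled points lie below 0 in siQKI and 11 in siRBFOX2, beside 18.1% and 14.5% of all genes tested.

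Of 23 cytoplasmic effectors, 4 rose and 9 fell in siQKI, beside 14.9% and 18.1% of all genes tested. In siRBFOX2 2 rose and 11 fell, beside 12.0% and 14.5% of all genes. Under upper-quartile scaling 5 rose and 6 fell in siQKI, and 3 rose and 8 fell in siRBFOX2. PAK1, a kinase activated by RAC and CDC42 that is recruited to ROBO through the adaptor NCK, gave the largest fall in siQKI. It was at 23429, 22545 and 24457 in siCtrl, 14978, 16346 and 15405 in siQKI and 18607, 18613 and 18443 in siRBFOX2. The 3 groups of PAK1 were apart from each other, with log2 fold changes of -0.59 (SE 0.05, limma adjusted p = 1.36e-07) and -0.34 (SE 0.05, limma adjusted p = 6.04e-05). PAK2 fell by 0.48 and 0.15 on the log2 scale (SE 0.04 each), and the direct difference of -0.33 passed (limma adjusted p = 6.70e-05). ABL2, a tyrosine kinase of the ABL family that phosphorylates ROBO, was at -0.53 in siQKI (SE 0.08, limma adjusted p = 6.81e-05) and -0.23 in siRBFOX2 (SE 0.08, limma adjusted p = 0.0363), while ABL1 passed in neither (-0.01 and 0.04, SE 0.05 each). The actin regulators VASP (-0.37 and -0.32, SE 0.04 each) and ENAH (-0.21 and -0.29, SE 0.05 each) fell in both. Their relative EVL passed in neither (-0.13 and -0.02, SE 0.06 each). PFN2, an actin-binding profilin, gave the largest fall in siRBFOX2 (-0.42, SE 0.04, limma adjusted p = 7.13e-07). RAC1 fell by 0.12 and 0.16 on the log2 scale (SE 0.04 each), and CDC42 and RHOA passed in neither. SOS1, the exchange factor that links ROBO to RAC, rose in both (0.36 and 0.33, SE 0.07 each).

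Of 6 transcription regulators tested, 2 rose in each knockdown and 0 fell (limma, 0 also at an unadjusted p under 0.05). Of all genes tested, 14.9% rose and 18.1% fell in siQKI, and 12.0% and 14.5% in siRBFOX2. Between the knockdowns 0 regulators passed, with 1 at an unadjusted p under 0.05, beside 21.5% of all genes. LHX4, a LIM-homeodomain factor, rose from 202 in siCtrl to 511 in siQKI (1.39, SE 0.26, limma adjusted p = 7.58e-04) and to 347 in siRBFOX2 (0.80, SE 0.26, limma adjusted p = 0.036). The latter call was lost in 4 of 9 fits that each left out a library, those without siCtrl replicate 3 (0.50), siQKI replicate 2 (0.80), siRBFOX2 replicate 1 (0.59) or siRBFOX2 replicate 2 (0.83). It was also lost without a filter, in a fit of only siRBFOX2 and siCtrl, and without a trend. HOXA2, a factor that regulates Robo and Slit genes in the hindbrain, was at 0.33 and 0.47 (SE 0.11 each, limma adjusted p = 0.0349 and 0.00569).

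**Figure D4:**
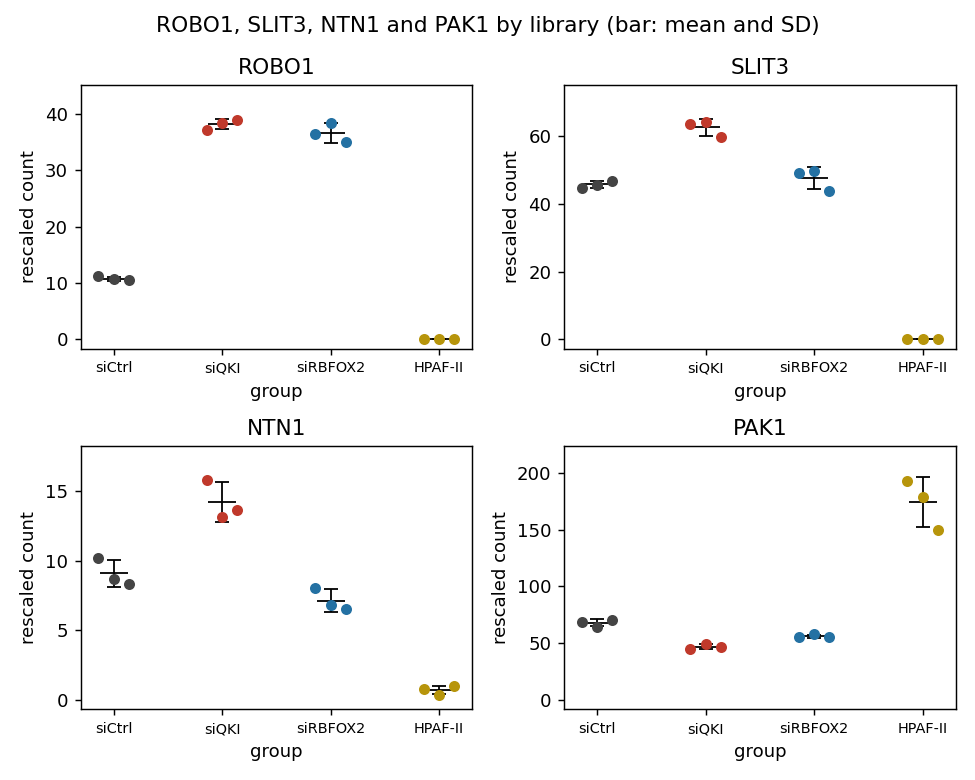
Rescaled counts (linear axes) of ROBO1, SLIT3, NTN1 and PAK1 in the 3 libraries of each group, with the mean and SD. ROBO1 rises in both knockdowns, SLIT3 is highest in the siQKI libraries, NTN1 moves in opposite directions, PAK1 is lower in both knockdowns, and in HPAF-II ROBO1 and SLIT3 are at 0.

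Between the lines, the ligand and the receptors that were abundant in PANC-1 (SLIT3, ROBO1 and ROBO3) were at or near 0 in HPAF-II. The lines were normalized apart, so values rescaled to a total of 1000000 were set side by side without a test, and a gene was counted when its libraries did not overlap and its levels were at least 2-fold apart. Of 24673 genes compared, 43.0% met this, 20.9% higher and 22.0% lower in HPAF-II. Of the 8 family genes compared, 3 met it (ROBO1, SLIT3 and ROBO3), all lower in HPAF-II. ROBO1 and SLIT3 were listed at 0 in all 3 HPAF-II libraries, against rescaled counts of 10.8 ± 0.403 and 45.7 ± 1.12 in PANC-1 siCtrl (SD, n = 3). ROBO3 was at 0.00441, 0.0279 and 0.0355 in HPAF-II and 4.24, 4.68 and 3.95 in PANC-1, a log2 ratio of -7.20 that depends on the 0.01 added before the log. ROBO2 and SLIT2 were listed at 0 in both. ROBO1 in the knockdown libraries, at 38.2 ± 0.918 in siQKI and 36.7 ± 1.77 in siRBFOX2, was thus farther from the HPAF-II value than the siCtrl libraries were. QKI itself was at 14.5 in HPAF-II and 74.2 in PANC-1, and RBFOX2 at 30.7 and 44.8.

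With all libraries, the other family genes compared did not meet the criterion of 2-fold without overlap. SRGAP2 was at 42.4 ± 5.77 in HPAF-II and 47.9 ± 1.18 in PANC-1 (log2 ratio -0.18, libraries overlapping), and SRGAP3 at 0.584 ± 0.182 and 0.415 ± 0.185 (0.55, overlapping). SRGAP1 was at 14.0, 17.3 and 9.99 in HPAF-II, below each PANC-1 library (23.7, 21.9 and 23.3), with a log2 ratio of -0.77 that did not reach 2-fold. SLIT1 (0.151 ± 0.104 and 0.232 ± 0.06) and ROBO4 overlapped. ROBO4 was listed at 0 in HPAF-II replicates 2 and 3 and at 0.119 in replicate 1, the library with the higher VIM value. Without that library 4 members met the criterion, ROBO4 included. Fewer libraries overlap less easily. Of all genes, 10599 met the criterion with every library and 11107 to 11927 with a library left out in turn. Of the SRGAP2 copies, SRGAP2D was higher in HPAF-II (18.9 against 7.2, log2 ratio 1.39).

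Of 52 pathway genes compared between the lines, 22 met the criterion (42.3%), close to the 43.0% of all genes, with 5 higher and 17 lower in HPAF-II beside 20.9% and 22.0% of all genes. The heparan sulfate proteoglycan SDC2, at 55.2 in PANC-1, was listed at 0 in HPAF-II. GPC1 was at 20.7, 19.6 and 44.3 in HPAF-II (mean 28.2) against a mean of 57.9. EVL, the Ena/VASP protein, was at 0.0123 in HPAF-II and 15.4 in PANC-1, whereas its relatives ENAH (80.4 and 76.7) and VASP (72.8 and 90.5) overlapped. Both overlaps rested on HPAF-II replicate 3. ENAH was at 91.7, 93.3 and 56.3 in HPAF-II replicates 1, 2 and 3, and VASP at 61.1, 58.7 and 98.7. MSI1, an RNA-binding protein reported to control Robo3 translation in mice, was at 0.00578 and 3.76. NTN1 was at 0.744 and 9.08, a log2 ratio of -3.68. PFN2 (67.8 and 475) and CAP2 (3.7 and 26.4), both regulators of actin, were also lower in HPAF-II. In the other direction, PRRG4 was at 28.0 in HPAF-II and 0.635 in PANC-1 (5.45), FLRT3, a ROBO1 co-receptor, at 22.8 and 1.27 (4.19), the LIM-homeodomain factor ISL1 at 5.77 and 0.0774 (6.75), and PAK1 at 174 and 68.2 (1.34).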

How the data were processed

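PolyA-selected RNA of 12 libraries was sequenced in pairs by the study. The submitters' processing notes name FastQC, Picard, SAMtools, STAR 2.7.5a, DESeq2 and hg38, and genes follow the FAST DB annotation. The deposited values are a normalized signal, gene counts that had been divided by DESeq2 size factors by the authors, apart for 9 PANC-1 and 3 HPAF-II libraries. Values came in whole multiples of 1 step per library (tolerance 0.01). Of values up to 30 steps, 82.1% to 84.8% were multiples of 3, which a fragment count would not give, so depth was taken as unknown and no count test was run. Totals ranged from 292248837 to 376192091 steps in PANC-1 libraries and from 226697015 to 309720537 steps in HPAF-II libraries, and precision was taken from the replicates. Counting by strand is not given in the sources used here.

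For PANC-1, limma 3.58.1 (R 4.3.3, mean-variance trend, two-sided) was fitted to log2(normalized count + 1) of all 9 libraries without a block. Tests covered 22544 genes whose mean reached 10, with Benjamini-Hochberg adjustment and a threshold of 0.05. In simulated data for siQKI against siCtrl (22544 genes), 37 of 100 genes changed by 0.5 and 52 of 100 changed by 1 on the log2 scale were recovered, with 7 false calls. The simulation used normal noise and changed no other gene, whereas 33.0% of genes passed in the real contrast. The adjusted threshold was thus stricter there, and these shares do not give the power of the real fit. Lines were described without a test on values rescaled to 1000000, with 0.01 added before the log. Other work used Python 3.11.15, numpy 2.4.6, pandas 2.3.3 and matplotlib 3.10.9.

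Members, lists and tests were chosen with earlier results of these data known. Named were all members, the targeted genes, the SRGAP2 copies and, per comparison, the top 3 pathway genes in each direction by size of change, given a mean of at least 50, libraries that did not overlap and, in PANC-1, a pass of the threshold. Further pathway genes were named after their values were seen. Alternatives were 0.1 or 10 as the pseudocount, testing without a filter, a minimum mean of 50, upper-quartile scaling (75th percentile), a fit of 2 groups, a replicate block, no trend, the deposited values between lines, and leaving out each library. Windows with motifs come from GENCODE 29 transcripts and miR-218 from RefSeq.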

Additional observations from a re-analysis of the deposited data

How the results depend on the processing

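ROBO1 and SLIT3 in siQKI and ROBO1 in siRBFOX2 kept their direction and their side of the threshold under every alternative run, with log2 fold changes of 1.74 to 1.78, 0.36 to 0.43 and 1.69 to 1.74 when libraries were left out in turn. The number of family genes past the threshold in siQKI, 4, was 2 with a pseudocount of 10, with a mean of at least 50 and with only the groups compared, and 2 to 4 with a library left out. In siRBFOX2, 2 became 1 at the minimum of 50 and 1 to 2 with a library left out, the lower count being without siRBFOX2 replicate 1. Between the knockdowns, 2 became 1 with a pseudocount of 0.1, no filter, the minimum of 50, only the groups compared or no trend, and 1 to 2 with a library left out. ROBO2 and ROBO4 account for these losses. A minimum of 50 removes ROBO2 and ROBO4 from the test. In the fit of only siQKI and siCtrl, ROBO2 fell under the minimum mean of 10 and was not tested. The cause of the other losses was not tested. Pathway genes past the threshold fell from 27 to 15 (no filter) and 16 (no trend) in siRBFOX2 and from 20 to 13 (no trend) between the knockdowns, and all genes without a filter numbered 3836 and 3128 in these contrasts. Without a filter, NEO1, NTN1 and LHX4 in siRBFOX2 and ABL2 and PRRG4 between the knockdowns no longer passed, nor did NTN1, LHX4 and ABL2 without a trend. Values near 0 changed sign with upper-quartile scaling (in siQKI ROBO3 0.04 and SRGAP2 0.00, in siRBFOX2 SLIT3 0.03, between the knockdowns SRGAP1 0.03 and SRGAP2 0.02). Leaving out a library gave ranges that crossed 0 for ROBO3 (-0.08 to 0.07) and SRGAP1 (-0.02 to 0.06) in siQKI, for ROBO4 (-0.04 to 1.26), SLIT3 (-0.04 to 0.05), SRGAP1 (-0.01 to 0.03) and SRGAP3 (-0.08 to 0.62) in siRBFOX2, and for SLIT1 (-0.84 to 0.11), SRGAP1 (-0.04 to 0.05), SRGAP2 (-0.03 to 0.02) and SRGAP3 (-0.30 to 0.54) between the knockdowns. The log2 ratio of ROBO3 between the lines was -5.17 with a pseudocount of 0.1.

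Replicate numbers did not pair the libraries (same-numbered deviations had r from -0.0325 to 0.0235 over 9 pairs). With the replicate number as a block, 3, 2 and 2 family genes and 29, 26 and 18 pathway genes passed in siQKI, in siRBFOX2 and between the knockdowns, beside 7336, 5891 and 4758 genes in all, and ROBO4 in siQKI was the family gene that no longer passed. The unknown depth limits ROBO2, ROBO4, SLIT1 and SRGAP3 most.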

Other observations

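ROBO1, ROBO2 and SLIT3 each span more than 500 kb. Among the 223 tested genes whose span is at least 500 kb, a limit chosen after the values were seen, 13.9% passed as higher and 16.6% as lower in siQKI, and 10.3% and 17.5% in siRBFOX2, with median log2 fold changes of 0.01 and 0.03.

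ARHGAP4, the relative of the SRGAPs that also carries F-BAR and GTPase-activating domains, fell in siQKI (log2 fold change -0.35, SE 0.05, limma adjusted p = 3.14e-05) and was at 0.04 (SE 0.05) in siRBFOX2. The direct difference was -0.39 (limma adjusted p = 2.24e-05).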
